A study of Homo sapiens with 12 samples.

Results

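The transcripts of 38 genes of the lysosome were followed in cancer cell lines given quinacrine (QC). QC is an antimalarial drug and weak base that accumulates in acidic compartments. The 38 genes were a named list of 30 soluble proteins of the lysosome lumen (28 hydrolases and 2 activator proteins), 5 membrane proteins and 3 transcription factors of the MiT/TFE family. All 38 were found by symbol among the 60669 gene IDs of the count table, and all 38 passed the filter on low counts that left 18720 genes in the tests. RNA-seq was done on 12 libraries from 6 established cell lines, all of them named by the paper as ovarian cancer lines. The lines form 3 isogenic families of a chemotherapy-sensitive and a chemotherapy-resistant line: HeyA8 and HeyA8_MDR, SKOV3 and SKOV3_TR, and OV2008 and OV2008_C13. Every line was given 8 µM QC for 6 h, or buffer in parallel (vehicle), and 1 library was made per line and treatment, so that the replicates of each group were 3 different lines. Per the paper, OV2008_C13 is a cisplatin-resistant derivative of OV2008, HeyA8_MDR is carboplatin-resistant and SKOV3_TR is taxol-resistant, so that the resistant group mixes drugs, and each of its members is a single line. The study compared the transcriptional response to QC of sensitive and resistant lines.

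Lysosomal hydrolases are made in the endoplasmic reticulum, most of them are tagged with mannose 6-phosphate in the Golgi, and they degrade proteins, glycans and lipids at acidic pH. The membrane proteins form the limiting membrane and carry ions and degradation products across it. Many of these genes carry a palindromic element (CLEAR, built on the E-box CACGTG) near their start, which is bound by TFEB, TFE3 and MITF. These factors are held in the cytoplasm when mTORC1 phosphorylates them on the lysosome and enter the nucleus when mTORC1 is inactive or calcineurin removes the phosphates, so that much of their control does not need a change of their own transcripts.

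Total counts lay between 17782556 and 30585059 per library, and the QC library was the shallower of the pair in all 3 resistant lines and in SKOV3. The epithelial markers KRT8, KRT18, KRT7 and PAX8 were above 1 CPM (counts relative to library size) in 6 of 6 lines, EPCAM and WT1 in 5, CDH1 in 4 and MUC16 in 2. Their levels differed by family, and the origin of the lines was not tested. Without drug PAX8 was at 7.56 CPM in OV2008 and 19.6 in OV2008_C13, and at 325 to 480 CPM in the other lines. KRT7 was at 13.8 and 25.2 CPM in these lines, and at 259 to 625 CPM in the others. KRT8, KRT18, EPCAM and CDH1 were highest in the OV2008 family. WT1 did not exceed 4.79 CPM in any library. The 4 leukocyte markers PTPRC, CD14, CSF1R and CD3E did not exceed 0.665 CPM in any library. Among genes at least 8-fold higher in HeyA8_MDR than in HeyA8 without drug (32 genes of at least 10 CPM), the QC library of HeyA8 lay a median of 68.2% of the way towards HeyA8_MDR on the log2 scale, and among the 75 genes at least 8-fold lower a median of 22.9% of the way. These genes were chosen by the HeyA8 vehicle library that is also the starting point, and the other pairs were not checked, so the shares have no baseline. Single genes went both ways. EPCAM stood at 66 and 51 counts in HeyA8 without drug and with QC, against 1 and 0 in HeyA8_MDR. PMEL stood at 6 and 53 counts in HeyA8, against 36 and 29 in HeyA8_MDR. The cell line label of both HeyA8_MDR libraries reads HeyA8, and they were placed by their titles. The members' count over the 6 lines and the group means are also given without HeyA8. The part of this library in the results was not tested. Levels below are CPM after TMM scaling, and 6 values in a row stand for HeyA8, HeyA8_MDR, SKOV3, SKOV3_TR, OV2008 and OV2008_C13.

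Set per kilobase of transcript, which allows genes to be compared, the vehicle levels of the 38 genes spanned a wide range. PSAP, whose product is cut into the 4 saposins that help degrade sphingolipids, had the highest mean level with 484 CPM per kilobase. The tetraspanin CD63 followed with 299.9, the carboxypeptidase CTSZ with 146 and the heavily glycosylated membrane protein LAMP1 with 125 CPM per kilobase. At the low end were IDS, the iduronate sulfatase, with 1.82, the collagen-degrading protease CTSK with 2.60, the sialidase NEU1 with 4.11 and TFEB with 4.18 CPM per kilobase. Exons of 18 members overlap those of another annotated gene, in 10 (ACP2, CTSA, CTSZ, GALNS, GLA, GLB1, IDUA, LIPA, MCOLN1 and SGSH) those of a named protein-coding gene. HEXA and MAN2B1 overlap unnamed protein-coding genes of the same strand, and IDS shares 6968 exon bases with one, so that its low level is uncertain, and as the strand setting of the counting is not given in the sources used here, reads in such stretches cannot be told apart.

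The levels of these genes varied between cell lines and between treatments, shown here by measures that are not on one scale. For these genes and for all genes alike, the value between lines was the larger. The SD of the vehicle log2 levels over the 6 lines had a median of 0.717 over the 38 genes (0.922 over all 18720), while the size of the log2 change with QC, taken as the median of its absolute value over lines, had a median of 0.254 (0.351 over all genes). For 20 of the 38 genes (52.6%) the 4 libraries of 1 family lay above the other 8, against 34.3% of all genes tested. In the HeyA8 family these were the 9 genes LAMP1, CTSA, CTSZ, TPP1, GLB1, GUSB, HEXA, PPT1 and SMPD1, in the SKOV3 family the 7 genes SCARB2, CTSK, MANBA, ARSA, ASAH1, PSAP and TFEB, and in the OV2008 family the 4 genes CTSH, GLA, LIPA and GM2A. CTSH, an aminopeptidase of the papain family, had the widest range, from 1.15 CPM in HeyA8 to 397 CPM in OV2008 without drug (344-fold). GM2A, the activator that presents ganglioside GM2 to its hydrolase, lay between 227.9 and 369 CPM in the OV2008 family and between 24.3 and 72.5 CPM in the other 8 libraries. ASAH1, the acid ceramidase, was at 238 CPM in SKOV3, 81.7 in SKOV3_TR and no higher than 69.6 CPM in the other vehicle libraries. Family and any handling shared by a family cannot be told apart here.

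**Figure D1:**
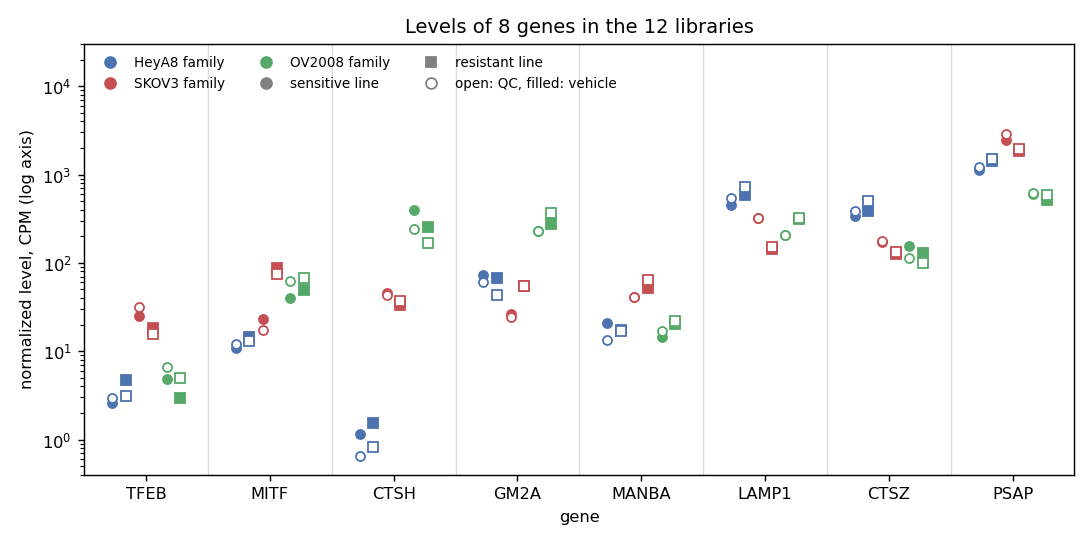
Normalized level (CPM, log axis) of 8 genes in the 12 libraries, coloured by family, with circles for sensitive and squares for resistant lines and open symbols for QC. TFEB, MANBA and PSAP are highest in the SKOV3 family, CTSH and GM2A in the OV2008 family, and LAMP1 and CTSZ in the HeyA8 family, and the open and filled symbols of a line mostly lie closer together than the families do.

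TFEB, the factor best known for driving lysosomal genes, was at 2.61, 4.67, 25.2, 18.2, 4.82 and 2.93 CPM in the vehicle libraries and at 2.92, 3.14, 31.5, 15.8, 6.66 and 4.94 CPM in the QC libraries. Both lines of the SKOV3 family lay above the other 4 with and without drug, and TFEB was higher with QC in 4 lines and lower in HeyA8_MDR and SKOV3_TR. Its fitted log2 change over the 6 lines was 0.16 ± 0.19 (SE, adjusted p = 0.735, edgeR's quasi-likelihood test), on counts of only 53 to 693 per library, with a 95% interval from -0.26 to 0.58. It was 0.03 without OV2008_C13, 0.10 without OV2008 and 0.28 without HeyA8_MDR.

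TFE3, its close relative, was at 95.5, 120.2, 80.7, 99.4, 87.2 and 62.9 CPM without drug and at 86.8, 109, 80.3, 113, 82.6 and 47.6 CPM with QC. Its level varied least of the 3 factors, and its log2 change was -0.10 ± 0.11 (SE, adjusted p = 0.723, edgeR's quasi-likelihood test), a value that became 0.09 when libraries were scaled to the reference gene RPLP0. MITF, the family member that governs melanocyte pigment genes, was at 10.9, 14.5, 23.1, 86.4, 39.9 and 49.9 CPM without drug and at 12.1, 12.97, 17.4, 75.1, 63.2 and 68.2 CPM with QC. It was highest in SKOV3_TR in both treatments, and both OV2008 lines were higher with QC, while SKOV3 and SKOV3_TR were lower. The log2 change of MITF was 0.09 ± 0.15 (SE, adjusted p = 0.831, edgeR's quasi-likelihood test), and without OV2008 it became -0.03. Of the melanocyte markers, TYR had no count in any of the 12 libraries, DCT did not exceed 0.831 CPM, MLANA 1.17 CPM and PMEL 4.58 CPM.

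Promoter windows were searched for the element that these factors bind. RefSeq promoter windows, 250 bases before to 50 bases after the start of a gene (GRCh38.p14), were at hand for 28 of the 38 members. The 10 members with no window, LAMP2, CTSK, LGMN, HEXA, NAGLU, MANBA, SGSH, ARSA, ASAH1 and PSAP, could not be searched. An element outside a window would be missed. The E-box CACGTG stood in a window of 8 of the 28 (28.6%), in 11.9% of the 12630 tested genes with a window and in 8.77% of all 27305 genes with one. The longer form TCACGTGA, which contains that E-box, stood in 5 of the 28 (17.9%) and in 2.02% of the tested genes, and the full palindrome, that form between a G and a C, in 3 of the 28 (10.7%) and 0.816%. All these motifs other than TCACGTG read the same on both strands, and TCACGTG, searched on both strands, stood in 7 of the 28 (25%) and in 6.77% of the tested genes. The 8 members with an E-box in a window were LAMP1, MCOLN1, CD63, CTSA, GAA, GALNS, NEU1 and ARSB. Genes had unlike numbers of windows, and a match in any of them counted. CD63 had 8 windows and ARSB 2, and each of these genes held 1 E-box. Of the 68 other lysosomal, autophagy and mTORC1 genes with a window, described further on, 18 held the E-box (26.5%). The stretches below end at the base before the transcript start and are shown because these 5 genes hold the 8-base form. Capitals mark CACGTG.
LAMP1 (chr13:113297039-113297238, plus strand): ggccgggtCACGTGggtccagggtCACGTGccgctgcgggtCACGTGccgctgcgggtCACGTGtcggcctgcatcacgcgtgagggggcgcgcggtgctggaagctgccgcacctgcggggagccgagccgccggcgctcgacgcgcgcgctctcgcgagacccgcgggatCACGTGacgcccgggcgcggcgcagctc
MCOLN1 (chr19:7522564-7522623, plus strand): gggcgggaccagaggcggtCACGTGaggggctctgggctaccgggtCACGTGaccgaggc
GAA (chr17:80101491-80101580, plus strand): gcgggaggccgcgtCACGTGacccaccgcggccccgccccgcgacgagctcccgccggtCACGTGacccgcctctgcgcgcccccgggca
GALNS (chr16:88856948-88857137, minus strand): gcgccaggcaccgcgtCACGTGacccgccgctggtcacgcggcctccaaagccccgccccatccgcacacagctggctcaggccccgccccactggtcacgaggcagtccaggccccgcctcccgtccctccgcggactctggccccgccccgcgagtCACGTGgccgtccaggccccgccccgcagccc
CTSA (chr20:45891275-45891334, plus strand): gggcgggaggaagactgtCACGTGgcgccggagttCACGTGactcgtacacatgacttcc
LAMP1 held 5 E-boxes in the 200 bases shown, at positions -192, -176, -159, -142 and -28 (the first base of the E-box, counted from the transcript start), and another that spans the start itself. MCOLN1, GAA and GALNS held the full palindrome, GAA in 2 copies at positions -76 and -31. With QC, the fitted log2 changes of the 8 members with an E-box had a median of 0.02 and ran from -0.38 to 0.23, with 5 above 0. Those of the 20 members whose window held none had a median of -0.04 and ran from -0.60 to 0.16, with 7 above 0. The ranges overlap, and a match of letters is not a bound site.

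With QC, 1 of the 38 genes was higher and 6 were lower at an unadjusted p under 0.05, the threshold the study used, when a single effect was fitted over the 6 lines. Of all 18720 genes, 7.99% were higher and 7.18% lower at that threshold. The higher gene was LAMP2 and the lower genes were CTSC, ACP2, NAGLU, SGSH, CTSH and GUSB, all of them soluble hydrolases. After Benjamini-Hochberg adjustment 0 of the 38 passed in edgeR's quasi-likelihood test, as did 0% of all genes. DESeq2 called 1 member at an adjusted p under 0.05, ACP2, against 2.79% of all genes, and at the unadjusted threshold the same 7 members and CD63. The share of members lower at the unadjusted threshold, 15.8%, stood beside a background of 7.18%, and the share higher, 2.63%, beside 7.99%. The median log2 change of the 38 genes was -0.01, and that of all genes 0.0001. Without HeyA8 5 members passed the unadjusted threshold (CTSC, ACP2, NAGLU, CTSH and GUSB), against 12% of all genes in that fit, and without OV2008 3 (CTSC, ACP2 and NAGLU), against 10.1%, where the fit of all 6 lines had 15.2%. With no filter on low counts LAMP2 and GUSB missed the unadjusted threshold and GALNS passed it, where 9.19% of all genes in that fit passed. Scaling to RPLP0, the reference gene of the study's PCR, moved the median of all genes to 0.18, so that directions given here are relative to all genes, and under it CTSC (-0.43) and LAMP2 (0.43) stayed past the unadjusted threshold, ACP2, NAGLU, SGSH, CTSH and GUSB did not, and LAMP1, CD63 and PSAP were past it on the higher side, where 18% of all genes passed in either direction. Fewer transcripts per cell and fewer cells expressing a gene cannot be told apart in such bulk samples.

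**Figure D2:**
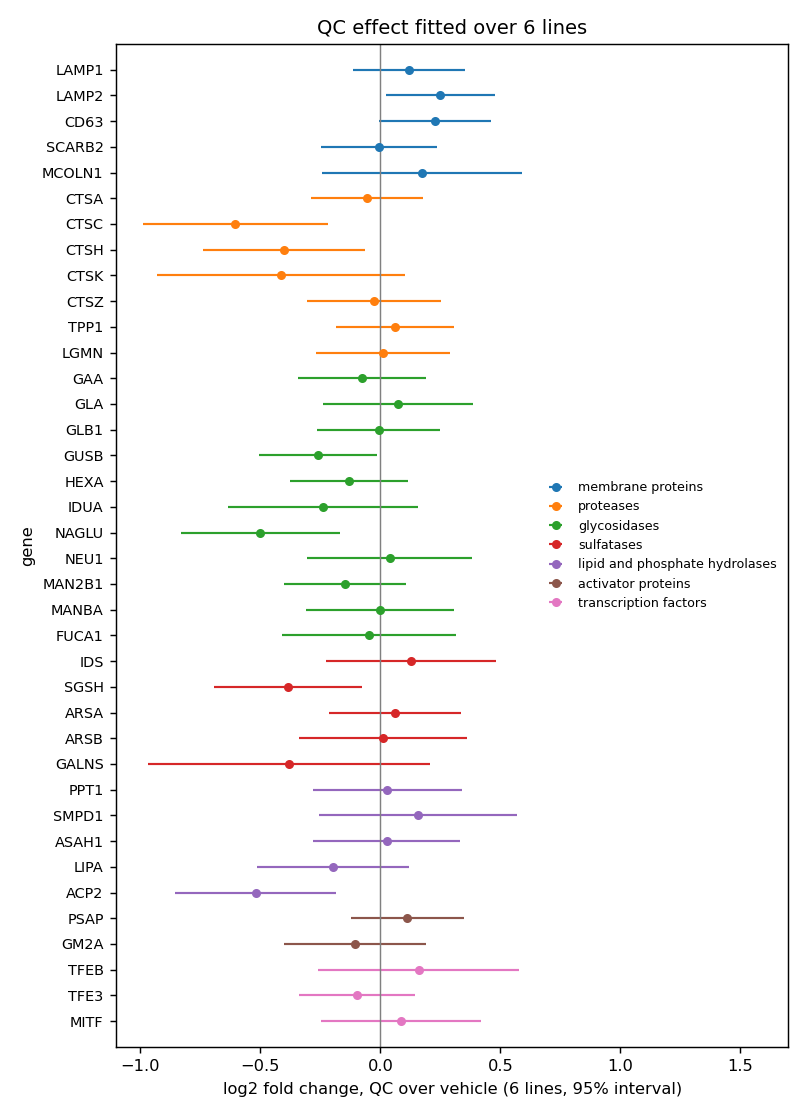
Fitted log2 change with QC over the 6 lines (x axis) with its 95% interval for each of the 38 genes (y axis), coloured by role. Intervals clear of 0 on the low side belong to CTSC, ACP2, NAGLU, SGSH, CTSH and GUSB, and on the high side to LAMP2, while every other interval spans 0.

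Direction was shared by all 6 lines for 6 of the 38 genes, where the lines form 3 isogenic pairs and are not 6 independent replicates. LAMP2, CD63 and PSAP were higher with QC in every line (7.89% of members, against 4.13% of all genes), and CTSC, GUSB and ACP2 were lower in every line (7.89%, against 4.6%).

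**Figure D3:**
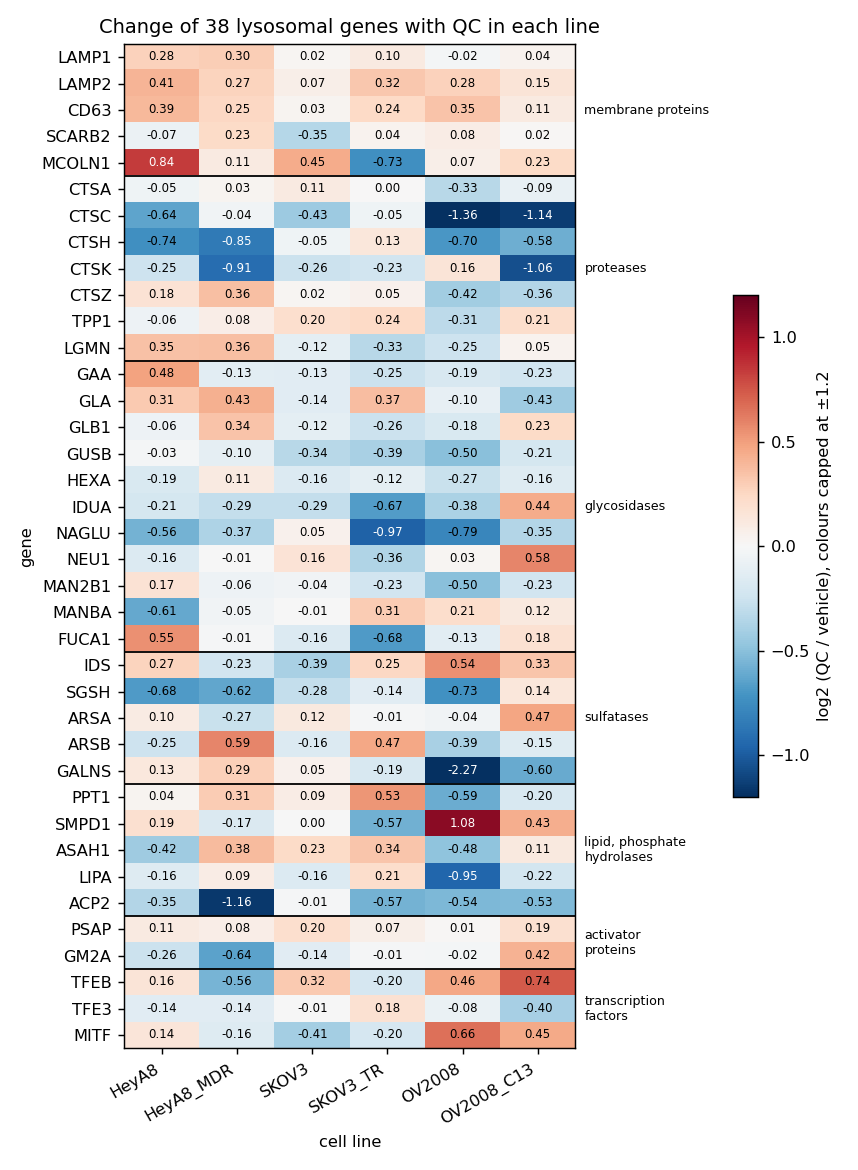
Log2 ratio of the QC to the vehicle library in each line (columns) for the 38 genes (rows), grouped by role, with colours capped at 1.2 in size. LAMP2, CD63 and PSAP are above 0 in all 6 columns and CTSC, GUSB and ACP2 below 0 in all 6, and the lowest single value, -2.27, is that of GALNS in OV2008.

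Among the 5 membrane proteins, LAMP2, one of the main proteins of the lysosomal membrane and the receptor of chaperone-mediated autophagy in one of its isoforms, was at 134, 195, 147, 164, 179 and 112 CPM without drug and at 179, 235, 155, 204, 216 and 124 CPM with QC. Each QC library lay above its own vehicle library, although the ranges of the treatments overlapped across lines. The fitted change was 1.19-fold, or 0.25 ± 0.10 on the log2 scale (SE, adjusted p = 0.286, edgeR's quasi-likelihood test). It was 0.22 without HeyA8, 0.23 without HeyA8_MDR or SKOV3_TR and 0.25 without OV2008, and in each of these 4 fits LAMP2 missed the unadjusted threshold. CD63, a tetraspanin of late endosomes and lysosomes that is shed on exosomes, was at 332, 434, 366, 253, 209 and 247 CPM without drug and at 434, 517, 374, 298, 266 and 266 CPM with QC. It was higher with QC in 6 of 6 lines, least in SKOV3, with a log2 change of 0.23 ± 0.11 (SE, adjusted p = 0.34, edgeR's quasi-likelihood test).

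LAMP1 was at 454, 590.3, 319, 142, 209 and 310.1 CPM without drug and at 549, 724, 324, 153, 206 and 319.8 CPM with QC. Its log2 changes of 0.28 and 0.30 in the HeyA8 family were the highest, the other 4 lines lay between -0.02 and 0.10, and the fitted value was 0.12 ± 0.11 (SE, adjusted p = 0.634, edgeR's quasi-likelihood test). SCARB2, the receptor that carries glucocerebrosidase to the lysosome, was at 146, 138, 348, 187, 87.5 and 92.6 CPM without drug and at 139, 162, 274, 193, 92.8 and 93.8 CPM with QC. Its level was ordered by family, with SKOV3 and SKOV3_TR highest and both OV2008 lines lowest, and its log2 change was -0.01 ± 0.11 (SE, adjusted p = 0.985, edgeR's quasi-likelihood test), which changed sign without HeyA8, without SKOV3 and under RPLP0 scaling. MCOLN1, the calcium channel (TRPML1) whose signal activates calcineurin, was at 14.2, 23.1, 7.11, 8.33, 10.2 and 12.7 CPM without drug and at 25.5, 24.9, 9.72, 4.98, 10.8 and 14.96 CPM with QC. The lines parted widely, from a log2 ratio of 0.84 in HeyA8 (321 against 697 counts) to -0.73 in SKOV3_TR (282 against 94 counts). The QC library of HeyA8, at 25.5 CPM, stood at the level of HeyA8_MDR. The fitted log2 change of MCOLN1 was 0.17 ± 0.19 (SE, adjusted p = 0.71, edgeR's quasi-likelihood test), and 0.03 without HeyA8.

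**Figure D4:**
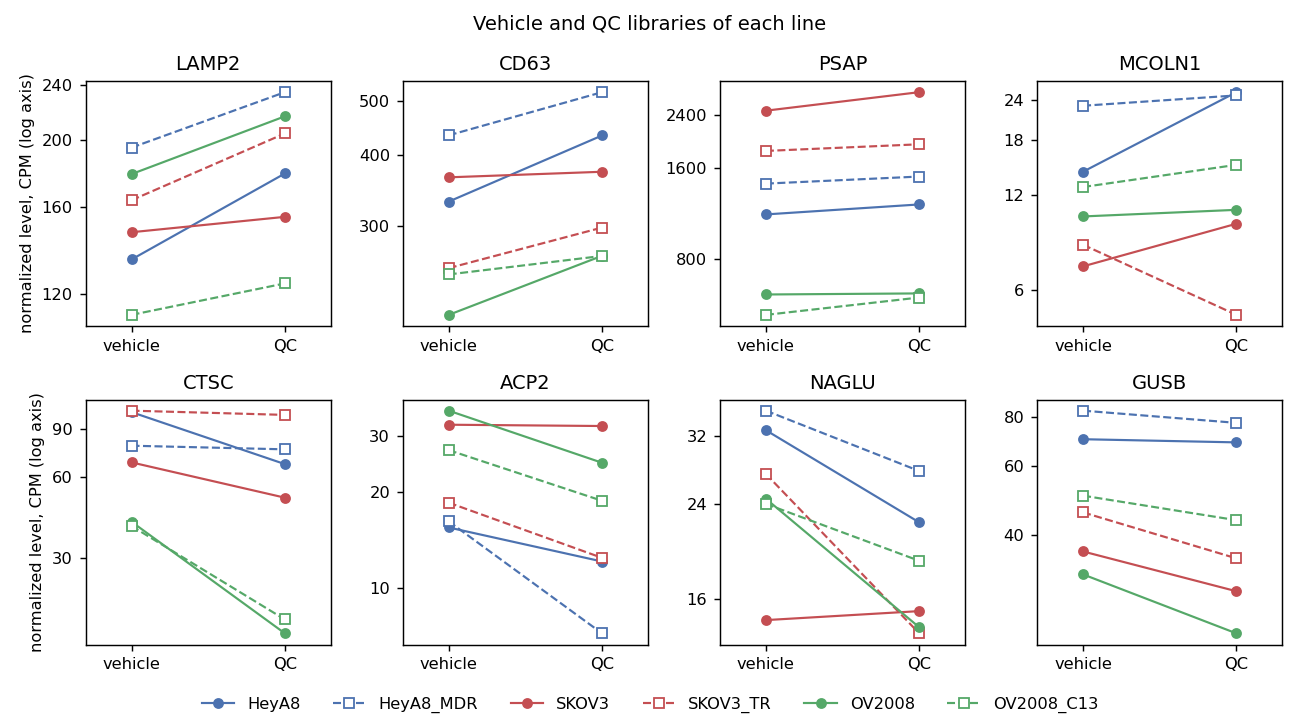
Normalized level (CPM, log axes that do not start at 0 and differ between panels) of 8 genes in the vehicle and QC library of each line, joined by lines, with dashed lines and open squares for resistant lines. LAMP2, CD63 and PSAP slope upwards and CTSC, ACP2 and GUSB downwards in 6 of 6 lines, NAGLU downwards in 5, and MCOLN1 has its steepest upward slope in HeyA8 and slopes downwards in SKOV3_TR.

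Of the 7 proteases, 2 were lower with QC at the unadjusted threshold (28.6%, against 7.18% of all genes). CTSC, the dipeptidyl peptidase that activates granule serine proteases, was at 104, 78.1, 67.8, 105, 40.9 and 39.5 CPM without drug and at 66.8, 75.7, 50.2, 101, 15.9 and 17.9 CPM with QC. It was lower with QC in 6 of 6 lines, most in OV2008 and OV2008_C13 with log2 ratios of -1.36 and -1.14, and hardly at all in HeyA8_MDR and SKOV3_TR (-0.04 and -0.05). The fitted change was 0.658-fold, or -0.60 ± 0.18 on the log2 scale (SE, adjusted p = 0.176, edgeR's quasi-likelihood test), it had the largest size among the 38 genes, and it passed the unadjusted threshold in 6 of 6 fits that left out 1 line. With no filter on low counts the adjusted p of CTSC was 0.0059 in edgeR's quasi-likelihood test, a fit in which 791 of 39590 genes passed the adjusted threshold.

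CTSH was at 1.15, 1.56, 45.5, 33.7, 397 and 252 CPM without drug and at 0.658, 0.829, 43.8, 37.01, 245 and 168 CPM with QC. It was lower with QC in both HeyA8 lines, where it was nearly absent (14 counts at the lowest), and in both OV2008 lines, where it was abundant, but not in SKOV3_TR. Its log2 change was -0.40 ± 0.16 (SE, adjusted p = 0.254, edgeR's quasi-likelihood test), which missed the unadjusted threshold without OV2008 (-0.32) or OV2008_C13 (-0.37). The other 5 proteases did not pass and had fitted log2 changes from -0.42 (CTSK, on counts as low as 9) to 0.06 (TPP1, the tripeptidyl peptidase). CTSA, which also shields NEU1 and the galactosidase GLB1, had a value of -0.05, CTSZ -0.03 and LGMN, the asparaginyl endopeptidase that matures other cathepsins, 0.01. CTSZ was higher with QC in the HeyA8 family and lower in the OV2008 family, with log2 ratios of 0.18, 0.36, 0.02, 0.05, -0.42 and -0.36.

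Of the 11 glycosidases, 2 were lower at the unadjusted threshold (18.2%, against 7.18% of all genes). A fitted value below 0 was found for 9 of the 11, and for 9358 of all 18720 genes. Of these 9 glycosidases, 6 (GAA, GLB1, HEXA, MAN2B1, MANBA and FUCA1) lay above 0 under RPLP0 scaling. NAGLU, the N-acetylglucosaminidase of heparan sulfate breakdown, was at 32.8, 35.7, 14.6, 27.3, 24.5 and 24.00 CPM without drug and at 22.2, 27.6, 15.2, 13.8, 14.2 and 18.8 CPM with QC. It was lower with QC in 5 lines, most in SKOV3_TR (923 against 261 counts, log2 ratio -0.97), and about level in SKOV3. The fitted log2 change was -0.50 ± 0.15 (SE, adjusted p = 0.18, edgeR's quasi-likelihood test), which passed the unadjusted threshold in 6 of 6 fits that left out 1 line.

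GUSB, the beta-glucuronidase often used as a reference gene in PCR, was at 70.2, 83.1, 36.2, 45.6, 31.6 and 50.3 CPM without drug and at 68.9, 77.3, 28.7, 34.8, 22.4 and 43.6 CPM with QC. It was lower with QC in 6 of 6 lines, with log2 ratios from -0.03 in HeyA8 to -0.50 in OV2008, and reads of GUSB may be shared with its pseudogenes. The fitted log2 change was -0.26 ± 0.11 (SE, adjusted p = 0.308, edgeR's quasi-likelihood test), and GUSB missed the unadjusted threshold without SKOV3 (-0.25), SKOV3_TR (-0.23), OV2008 (-0.21) or OV2008_C13 (-0.28). The other 9 glycosidases lay between -0.24 (IDUA, the iduronidase) and 0.08 (GLA, the alpha-galactosidase). GAA, which degrades lysosomal glycogen, had a log2 ratio of 0.48 in HeyA8 and between -0.25 and -0.13 in the other 5 lines. Its QC library in HeyA8, 81.5 CPM, lay between the vehicle libraries of HeyA8 (58.3 CPM) and HeyA8_MDR (125 CPM). HEXA, the alpha chain of the hexosaminidase that degrades GM2, was at 7.59 CPM in SKOV3_TR and between 32.8 and 59.4 CPM in the other vehicle libraries, with a log2 change with QC of -0.13. GLB1 had a value of -0.01, the mannosidases MAN2B1 and MANBA values of -0.15 and -0.003, FUCA1, the fucosidase, -0.05, and NEU1 0.04.

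Of the 5 sulfatases, SGSH, which removes the N-linked sulfate of heparan sulfate, was the only one at the unadjusted threshold (20%, against 7.18% of all genes lower). It was at 51.5, 38.7, 52.1, 37.4, 36.9 and 28.1 CPM without drug and at 32.2, 25.2, 42.8, 33.9, 22.2 and 30.9 CPM with QC. SGSH was lower with QC in 5 lines and higher in OV2008_C13, with a fitted log2 change of -0.39 ± 0.14 (SE, adjusted p = 0.231, edgeR's quasi-likelihood test), and missed the unadjusted threshold without HeyA8 (-0.33) or OV2008 (-0.31). GALNS, the galactosamine 6-sulfatase, was at 27.96, 23.6, 64.2, 33.8, 20.8 and 23.4 CPM without drug and at 30.6, 28.8, 66.7, 29.6, 4.23 and 15.4 CPM with QC. In OV2008 it stood at 371 counts without and 96 with QC, a log2 ratio of -2.27, while 3 lines lay slightly above 0. Its fitted value of -0.38 ± 0.27 (SE, adjusted p = 0.524, edgeR's quasi-likelihood test) had the widest error of the 38 genes and became -0.06 without OV2008.

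IDS was at 19.1, 22.3, 12.7, 17.1, 6.83 and 4.96 CPM without drug and at 22.99, 19.01, 9.72, 20.4, 10.01 and 6.25 CPM with QC, higher in 4 lines and lower in HeyA8_MDR and SKOV3, with a fitted log2 change of 0.13 ± 0.16 (SE, adjusted p = 0.751, edgeR's quasi-likelihood test). ARSA, the sulfatase of sulfatides, and ARSB, that of dermatan sulfate, had fitted values of 0.06 and 0.01. ARSB was higher with QC in HeyA8_MDR and SKOV3_TR (0.59 and 0.47) and lower in the other 4 lines.

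Among the 5 lipid and phosphate hydrolases, ACP2, the acid phosphatase of the lysosome, was at 15.5, 16.2, 32.5, 18.5, 36.01 and 27.1 CPM without drug and at 12.1, 7.23, 32.2, 12.5, 24.7 and 18.8 CPM with QC. It was lower with QC in 6 of 6 lines, most in HeyA8_MDR (312 against 122 counts, log2 ratio -1.16) and least in SKOV3 (-0.01). The fitted change was 0.697-fold, or -0.52 ± 0.16 on the log2 scale (SE, adjusted p = 0.177, edgeR's quasi-likelihood test; adjusted p = 0.0488, DESeq2), and ACP2 passed the unadjusted threshold in 6 of 6 fits that left out 1 line.

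SMPD1, the acid sphingomyelinase that cationic amphiphilic drugs are known to displace from lysosomal membranes, was at 35.6, 45.5, 12.3, 22.6, 12.8 and 12.9 CPM without drug and at 40.7, 40.4, 12.3, 15.2, 27.2 and 17.4 CPM with QC. OV2008 was higher with QC by 1.08 on the log2 scale (229 against 617 counts), SKOV3_TR had a log2 ratio of -0.57, and the fitted value of 0.16 ± 0.19 (SE, adjusted p = 0.736, edgeR's quasi-likelihood test) became -0.02 without OV2008. LIPA, which frees cholesterol from its esters, had a log2 ratio of -0.95 in OV2008 and between -0.22 and 0.21 in the other 5 lines. PPT1, which removes palmitate from proteins, ran from -0.59 in OV2008 to 0.53 in SKOV3_TR, and ASAH1 from -0.48 in OV2008 to 0.38 in HeyA8_MDR, so that both fitted values (0.03 and 0.03) lay near 0.

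Of the 2 activator proteins, PSAP was at 1122, 1420.2, 2482, 1824, 608 and 519.8 CPM without drug and at 1211, 1499, 2860.4, 1919, 613 and 594 CPM with QC. It was higher with QC in 6 of 6 lines by small steps, between 0.01 and 0.20 on the log2 scale, and the fitted value was 0.11 ± 0.11 (SE, adjusted p = 0.666, edgeR's quasi-likelihood test). GM2A lay between -0.64 in HeyA8_MDR and 0.42 in OV2008_C13, with a fitted value of -0.11.

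Hydrolases and membrane proteins stood on opposite sides of 0 when taken as groups, though not under RPLP0 scaling. The median log2 ratio of the 30 soluble members was -0.06, -0.03, -0.09, -0.08, -0.32 and -0.12 in the 6 lines, below 0 in 6 of 6 (mean -0.12 ± 0.11, SD, n = 6). That of the 5 membrane proteins was 0.39, 0.25, 0.03, 0.10, 0.08 and 0.11, above 0 in 6 of 6 (mean 0.16 ± 0.13, SD, n = 6). The membrane median exceeded the soluble median by 0.12 in SKOV3 at the least and 0.45 in HeyA8 at the most (mean 0.28 ± 0.13, SD, n = 6). The median of all genes tested was within 0.005 of 0 in every line. The membrane median was the value of CD63 in 4 lines, of LAMP1 in SKOV3_TR and of SCARB2 in OV2008. The wider lists described further on did not show the same split. The median of 26 further lysosomal membrane and transport proteins was 0.06, -0.10, -0.04, -0.08, -0.16 and 0.13, above 0 in 2 of 6 lines, and that of 22 further soluble hydrolases was below 0 in 3 of 6. When libraries were scaled to RPLP0 the soluble mean was 0.07 and the membrane mean 0.35, so that the soluble group lay below all genes and above 0. Leaving out HeyA8 gave a soluble mean of -0.13 and a membrane mean of 0.12. This is a description of chosen genes with no test, and the 6 lines are 3 isogenic pairs, not 6 independent replicates.

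**Figure D5:**
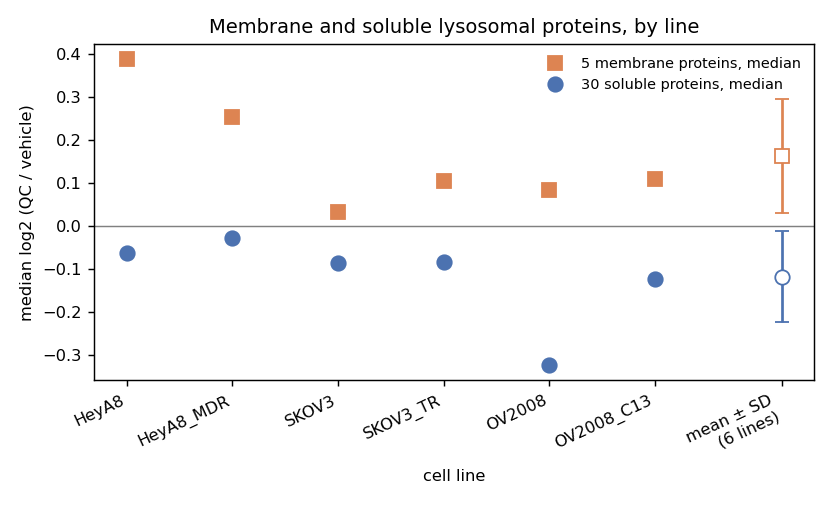
Median log2 ratio of QC to vehicle (y axis) of the 5 membrane proteins (squares) and the 30 soluble proteins (circles) in each line (x axis), with the mean and SD over the 6 lines at the right. The membrane median lies above 0 and above the soluble median in all 6 lines, with the smallest gap in SKOV3, while under RPLP0 scaling the soluble mean is 0.07 and the membrane mean 0.35.

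The study set sensitive against resistant lines. In the sensitive lines 2 of the 38 genes were lower with QC at the unadjusted threshold, CTSC (log2 change -0.80 ± 0.25, SE) and SGSH (-0.56 ± 0.20), against 3.04% of all genes, and 0 were higher, against 3.55%. In the resistant lines 2 were lower, ACP2 (-0.75 ± 0.22, SE) and NAGLU (-0.56 ± 0.23), against 2.59% of all genes, and 0 were higher, against 3.43%. After adjustment 0 members passed in either group in edgeR's quasi-likelihood test (0% of all genes in both). In DESeq2 0 members passed in either group, against 32 of all 18720 genes in the sensitive lines and 0 in the resistant lines. Without SKOV3, 6 members were lower in the sensitive lines at the unadjusted threshold (CTSC, SGSH, CTSH, NAGLU, GALNS and LIPA), without HeyA8 3 (CTSC, GALNS and LIPA), and without OV2008 0 were. Of all genes 10.1%, 4.06% and 4.02% passed in either direction in these fits, against 6.59% with all lines. In the resistant lines without SKOV3_TR, ACP2 and CTSH were lower at that threshold and NAGLU missed it. There 6.22% of all genes passed in either direction, against 6.03% with all lines.

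The difference between the groups was tested directly. For 0 of the 38 genes was the QC change higher or lower in resistant than in sensitive lines at an unadjusted p under 0.05, against 0.566% of all genes on the higher side and 0.593% on the lower, and 0 passed after adjustment (0% of all genes, edgeR's quasi-likelihood test). The member with the smallest p was ASAH1, whose change was higher in resistant lines by 0.50 ± 0.27 on the log2 scale (SE, adjusted p = 1, edgeR's quasi-likelihood test), and ARSB followed with 0.57 ± 0.30. For CTSC the difference was 0.40 with a 95% interval from -0.38 to 1.18, and for ACP2 -0.44 with an interval from -1.12 to 0.23. For TFEB it was -0.32 with an interval from -1.21 to 0.56. Without OV2008_C13 the differences of CTSC (0.75) and ARSB (0.79) passed the unadjusted threshold, and without SKOV3 that of ASAH1 (0.74). Of all genes 2.73% and 2.09% passed in these fits, against 1.16% with all lines.

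Without drug, 0 of the 38 genes differed between the resistant lines and their sensitive partners at an unadjusted p under 0.05. Among 16091 genes tested in the 6 vehicle libraries, 1.9% were higher and 1.87% lower in resistant lines, and after adjustment 0 members and 0% of all genes passed (edgeR's quasi-likelihood test, on 2 residual degrees of freedom). The smallest p was that of ARSB, at 45.3, 11.2, 24.1, 12.9, 17.3 and 15.5 CPM without drug. ARSB was lower in the resistant line of each family, with a log2 difference of -1.01 ± 0.47 (SE, adjusted p = 0.97495, edgeR's quasi-likelihood test), and DESeq2 gave an adjusted p = 0.659, with ARSB past the unadjusted threshold. MITF was higher in the resistant line of each family, by 0.88 ± 0.45 on the log2 scale (SE, adjusted p = 0.97495, edgeR's quasi-likelihood test). GAA was higher in HeyA8_MDR and OV2008_C13 than in their partners and lower in SKOV3_TR, and without the SKOV3 family its difference of 0.70 became 1.14 and passed the unadjusted threshold. Without the OV2008 family ARSB (-1.42) and ASAH1 (-1.16) passed it. Of all genes 3.5% passed without the SKOV3 family and 4.08% without the OV2008 family, against 3.77% with all families.

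A wider set of 92 pathway genes was read in the same fits, and 91 were tested (CD68 did not pass the filter). The set was written from general knowledge, but with earlier results of these data known. Over the 6 lines 11 were higher at the unadjusted threshold (12.1%, against 7.99% of all genes) and 8 lower (8.79%, against 7.18%), 0 passed after adjustment in edgeR's quasi-likelihood test and 6 in DESeq2 (6.59%, against 2.79% of all genes). Of 10 autophagy genes with reported TFEB binding, 3 were higher (30%) and 0 lower. MAP1LC3B, which encodes the LC3B protein of autophagosome membranes, was higher in 6 of 6 lines, with log2 ratios of 0.38, 1.11, 0.25, 0.55, 0.80 and 0.44 and a fitted value of 0.59 ± 0.13 (SE, adjusted p = 0.141, edgeR's quasi-likelihood test; adjusted p = 0.00703, DESeq2). UVRAG, a partner of BECN1 in autophagosome maturation, was also higher in 6 of 6 lines, with 0.39 ± 0.13.

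Of 20 genes that control TFEB through mTORC1 and calcineurin, 4 were higher (20%, against 7.99% of all genes) and 1 lower (5%, against 7.18%). RRAGC, a Rag GTPase that brings mTORC1 to the lysosome, had a log2 change of 0.43 ± 0.12, higher in 6 of 6 lines, and PPP3CB, a catalytic subunit of calcineurin, one of 0.44 ± 0.14, higher in 5. Of 26 further membrane and transport proteins, 3 were higher (11.5%) and 4 lower (15.4%). OSTM1, the partner of the chloride exchanger CLCN7, was higher by 0.63 ± 0.16, and HGSNAT, which acetylates heparan sulfate ends before NAGLU can act, was lower in 6 of 6 lines (-0.53 ± 0.13). Of 22 further soluble hydrolases, 1 was higher (4.55%) and 3 lower (13.6%), led by DNASE2, the acid nuclease (-0.58 ± 0.15, lower in 6 of 6 lines), and GALC, the galactosylceramidase (-1.11 ± 0.39), which had no count in HeyA8, HeyA8_MDR and SKOV3. Of 13 genes of mannose 6-phosphate sorting 0 passed in either direction, and the smallest p was that of NAGPA, the uncovering enzyme (-0.29 ± 0.15), followed by IGF2R, the large mannose 6-phosphate receptor (0.22 ± 0.14). The median log2 change of the 91 genes was 0.01, against 0.0001 for all genes.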

How the data were processed

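Poly(A) RNA was sequenced from TruSeq RNA libraries. The deposited values are raw counts per gene, made by the authors and not normalized. The paper names TopHat, hg19 and HTSeq, while the submitters' processing notes name STAR 2.7.3a, HTSeq 0.6.1p1 and GRCh38.p13, and these sources were not reconciled. The annotation and strand setting are not given in the sources used here. Symbols were paired with 58620 of the 60669 gene IDs by Ensembl ID without version.

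edgeR 4.0.16 was run in R 4.3.3 on the counts as deposited, with filterByExpr over the 4 conditions (minimum count 10, minimum total 15), TMM scaling and the 2-sided quasi-likelihood test, with a term for each cell line and either 1 QC effect or 1 per resistance group. Vehicle libraries were compared with a term for each family. Benjamini-Hochberg adjustment covered all genes in a fit. Line values are log2 ratios of CPM with a prior count of 2. CPM per kilobase used the Ensembl canonical transcript. Libraries were paired by cell line, and the deviations of both libraries of a pair from their treatment means correlated over genes at 0.893 to 0.929. No source says that the libraries came from separate cultures beyond the line and treatment, so p-values measure the spread between these lines. The fits took the lines as independent, although the lines of a family are isogenic and are not.

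The alternatives were no line or family term, DESeq2 1.42.0, DESeq2's size factors, library size, RPLP0 scaling, keeping all genes with a count, requiring 10 counts in each library, a prior count of 0.5, the libraries of 1 group only, and leaving out each line or family. The methods were tested on simulated counts. Members and lists were chosen with earlier results of these data known. Values in every library are given for the factors, the membrane proteins, members at an unadjusted p under 0.05 in any tested effect or with 1 direction in 6 lines, and the 3 highest and 3 lowest soluble members. Of each wider list the 2 genes with the smallest p were named. GALNS and other members were given in every library or line after their values were seen, and so was the comparison of families. Genome windows came from RefSeq (GRCh38.p14), exon overlaps from GENCODE on GRCh37, and plots from matplotlib 3.10.9.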

Additional observations from a re-analysis of the deposited data

Results flagged for a closer look

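In 3 of the 38 genes the log2 ratio of 1 line stood apart from the other 5 by Dixon's criterion for 6 values (at its 95% critical value, which chance passes in about 1 of 20 groups). GAA had a log2 ratio of 0.48 in HeyA8, against -0.25 to -0.13 in the other lines, and this gap was 0.826 of the whole range. GALNS had a log2 ratio of -2.27 in OV2008, against -0.60 to 0.29 in the other lines. LIPA had a log2 ratio of -0.95 in OV2008, against -0.22 to 0.21 in the other lines.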

How the results depend on the processing

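Leaving out the cell line term (no replicate block) took away the pairing of each line's libraries. It left 0 members at an unadjusted p under 0.05 over all lines and in either resistance group. Of all 18720 genes 117, 30 and 23 passed in these fits, against 2840, 1234 and 1128 with the term. The loss was thus not particular to the members. The fitted log2 change of CTSZ turned to 0.10, LGMN to -0.018, GLA to -0.031, GLB1 to 0.021, MANBA to 0.051 and GM2A to 0.075. DESeq2 gave 1 member past the adjusted threshold over 6 lines (ACP2), against 2.79% of all genes. It gave 1 past the unadjusted threshold without drug (ARSB), against 6.58%. With no filter on low counts 1 member passed the adjusted threshold (CTSC), as did 791 of 39590 genes, while LAMP2 and GUSB missed the unadjusted one. Scaling by library size turned LGMN to -0.000138. Scaling to RPLP0 gave a soluble mean of 0.066 and a membrane mean of 0.35, and turned SCARB2 to 0.18, CTSA to 0.13, CTSZ to 0.16, GAA to 0.11, GLB1 to 0.18, HEXA to 0.057, MAN2B1 to 0.035, MANBA to 0.18, FUCA1 to 0.14, GM2A to 0.078 and TFE3 to 0.087. The cause of these changes was not tested. DESeq2's size factors, 10 counts in each library, a prior count of 0.5 and fits of 1 resistance group alone kept each count of members within 1.5 times and each group mean within the spread between lines.

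With 1 line or family left out, the members at an unadjusted p under 0.05 numbered 3 to 6 over 6 lines, 0 to 6 in sensitive lines, 2 in resistant lines in each fit, 0 to 2 for the difference and 0 to 2 without drug, with 0 past the adjusted threshold in each. Of all genes 10.1% to 15.5%, 4.02% to 10.1%, 2.07% to 6.97%, 0.931% to 2.73% and 3.47% to 4.08% passed the unadjusted threshold, in the same order. Without SKOV3_TR the members in resistant lines were ACP2 and CTSH, and NAGLU missed the threshold. The soluble mean then lay between -0.14 and -0.08, the membrane mean between 0.12 and 0.19 and their difference between 0.25 and 0.31. Fitted values that changed sign in some of these fits ran from -0.068 to 0.055 for SCARB2, -0.074 to 0.079 for LGMN, -0.092 to 0.0402 for GLB1, -0.069 to 0.12 for MANBA, -0.0083 to 0.17 for GLA, -0.11 to 0.093 for ARSB, -0.072 to 0.16 for PPT1, -0.057 to 0.13 for ASAH1, -0.16 to 0.082 for FUCA1, -0.094 to 0.0031 for CTSA, -0.12 to 0.054 for CTSZ, -0.0201 to 0.30 for SMPD1, -0.0298 to 0.18 for MITF, -0.083 to 0.12 for NEU1 and -0.031 to 0.11 for ARSA. The smallest counts, 9 for CTSK and 14 for CTSH, limit the precision of those genes, and 1 library per line and treatment leaves no measure of the spread within a line.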
